A study of Homo sapiens with 6 samples.

Results

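The family of miR-148 and miR-152 is made up of 3 human microRNAs (miRNAs), miR-148a, miR-148b and miR-152. Its members were chosen by name: every mature arm of these 3 miRNAs, which gave 6 of the 2575 mature entries in the deposited count tables. Of the 6 arms, 4 passed the filter on low counts, among 195 entries that did so in all. The counts come from small RNA libraries of exosomes, vesicles shed into the culture medium by HCT116, an established human colorectal cancer cell line. In 3 libraries the sample titles say untreated, which the treatment protocol describes as bacterial medium with no bacteria added. In the other 3 the titles say that the cells met enterotoxigenic Bacteroides fragilis (ETBF), a gut anaerobe that secretes a metalloprotease toxin, for 6 h, at a multiplicity of infection of 500. All groups share the cell line, the medium and exosome collection by centrifugation. The names of the deposited files give the opposite group to the titles in all 6 libraries. Groups below follow the titles, and every direction written here turns around if the file names are the correct ones. The labels do not say that replicates are separate cultures, so p-values measure only how far these libraries spread, and that spread may be technical.

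A miRNA is cut from a hairpin precursor whose 5p and 3p arms can each yield a mature strand of about the same length. The strand that is loaded into Argonaute recognises messenger RNAs mainly through its seed, bases 2 to 8 counted from its 5′ end, so miRNAs with the same seed share most of their predicted targets. The family is known for repressing the maintenance DNA methyltransferase DNMT1 and for being silenced by promoter methylation in gastrointestinal cancers, and miR-148a is also known as an abundant miRNA of liver and of milk vesicles.

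The mature strands are shown because the family is defined by its seed, which stands in capitals. RefSeq's miRNA table, on GRCh38.p14, matched 5 of the 6 arms, and miR-148a-5p is named only. The strands of the 3p arms, written 5′ to 3′, were as follows.
miR-148a-3p: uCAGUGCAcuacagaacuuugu
miR-148b-3p: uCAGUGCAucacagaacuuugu
miR-152-3p: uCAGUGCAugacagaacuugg
The 3p arms carry the same seed, CAGUGCA, which stood at bases 2 to 8 of 3 of the 2370 mature miRNAs in the RefSeq table (0.127%), these 3. Counted from 1 at the 5′ end of the first-named strand, miR-148a-3p and miR-148b-3p differ by 2 substitutions, C9U and U10C. miR-148a-3p and miR-152-3p differ by 3 over the 21 bases they share, C9U, U10G and U20G. miR-148b-3p and miR-152-3p differ by C10G and U20G. The 5p arms have seeds of their own.
miR-148b-5p: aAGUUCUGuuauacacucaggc
miR-152-5p: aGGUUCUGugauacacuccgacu

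Each miRNA comes from a locus of its own, and the hairpins are shown, with the mature arms that the table holds in capitals, because the balance of 3p and 5p arms is compared below.
MIR148A: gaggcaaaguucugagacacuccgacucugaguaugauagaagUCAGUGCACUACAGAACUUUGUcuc
MIR148B: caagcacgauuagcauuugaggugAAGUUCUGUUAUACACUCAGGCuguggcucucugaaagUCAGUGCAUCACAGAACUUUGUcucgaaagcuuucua
MIR152: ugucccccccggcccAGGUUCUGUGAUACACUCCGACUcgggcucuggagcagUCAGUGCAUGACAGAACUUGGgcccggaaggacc
On GRCh38.p14, MIR148A lies at chr7:25949919-25949986 on the minus strand, MIR148B at chr12:54337216-54337314 on the plus strand and MIR152 at chr17:48037161-48037247 on the minus strand. In GENCODE release 29, also on GRCh38, no other gene spans MIR148A. MIR148B lies in an intron of COPZ1 and MIR152 in an intron of COPZ2, on the host's strand in both cases. MIR148B is also spanned, on the same strand and outside its exons, by AC078778.2, annotated as sense overlapping. COPZ1 and COPZ2 encode paralogous zeta subunits of the COPI coat, which carries vesicles from the Golgi back to the endoplasmic reticulum. The deposited tables give no coordinates, and the submitters' processing notes name GRCh37.p5.

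hsa-miR-148a-3p, named miR-148a-3p here, was the most abundant entry in each of the 6 libraries. It held 52566, 140805 and 98337 counts in untreated-titled replicates 1 to 3, of library totals of 200207, 368923 and 293445. In ETBF-titled replicates 1 to 3 it held 83002, 94463 and 213444 counts, of totals of 250425, 221981 and 417321. Its share of the library was therefore 26.3%, 38.2% and 33.5% in the untreated-titled libraries and 33.1%, 42.6% and 51.1% in the ETBF-titled libraries. ETBF-titled replicate 1 lay inside the untreated-titled range, and ETBF-titled replicates 2 and 3 lay above it. Counting error is small beside that spread: the exact 95% binomial interval (Clopper-Pearson) of the lowest share was 26.1% to 26.4% and that of the highest 51.0% to 51.3%. Such intervals cover counting error only, since reads without molecular identifiers are not independent molecules. A share of a library does not give an amount per exosome: fewer vesicles carrying the strand and less of it per vesicle cannot be told apart here.

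**Figure D1:**
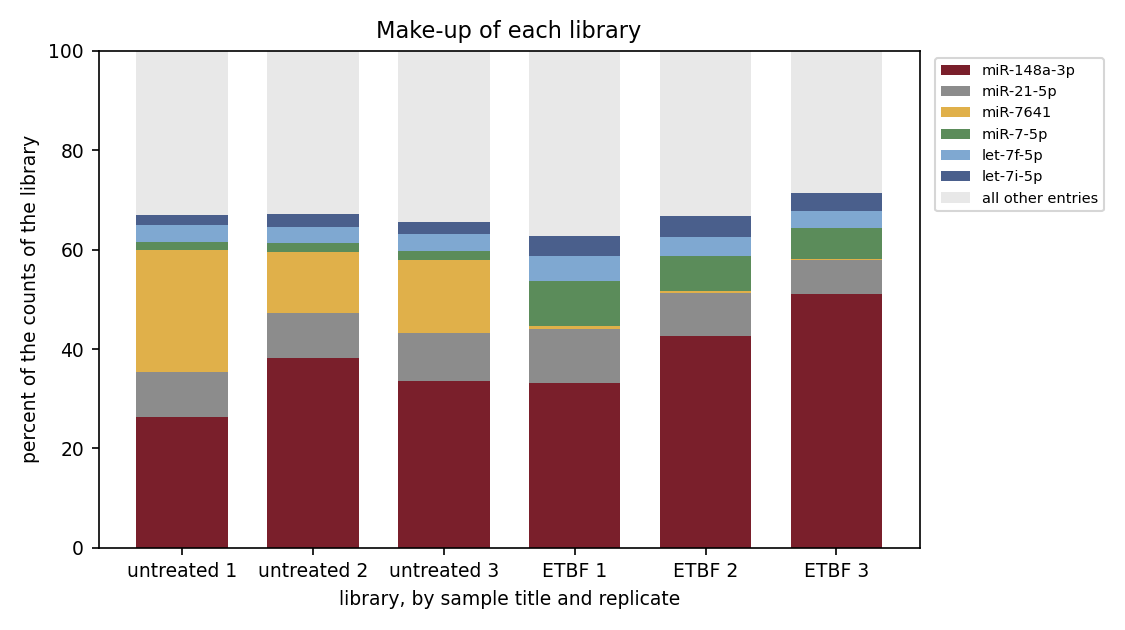
Percent of each library's counts held by miR-148a-3p and by the 5 most abundant entries outside the family, with all other entries in light grey, for the 6 libraries by title and replicate. miR-148a-3p, at the base of each bar, runs from 26.3% to 51.1%, and miR-7641 is visible mainly in the untreated-titled libraries.

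The paralogues with the same seed were far below miR-148a-3p. hsa-miR-148b-3p, reported like miR-148a to repress DNMT1, held 394, 877 and 642 counts in untreated-titled replicates 1 to 3 and 830, 691 and 1268 in ETBF-titled replicates 1 to 3. As a share of the library that was 0.197%, 0.238% and 0.219% against 0.331%, 0.311% and 0.304%. The lowest ETBF-titled share stood above the highest untreated-titled share, and the exact 95% intervals of those libraries, 0.287% to 0.321% and 0.222% to 0.254%, did not meet. How many of all entries separate by share of the library was not counted. miR-152-3p held 212, 353 and 270 counts against 267, 157 and 325. Its shares of 0.106%, 0.0957% and 0.0920% overlapped the ETBF-titled shares of 0.107%, 0.0707% and 0.0779%.

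The 5p arms were minor. miR-148a-5p held 30, 51 and 38 counts in untreated-titled replicates 1 to 3 and 41, 35 and 72 in ETBF-titled replicates 1 to 3. miR-148b-5p held 3, 4 and 4 counts against 9, 4 and 11, shares of 0.00108% to 0.00150% against 0.00180% to 0.00359% that did not overlap either. miR-152-5p held 0, 1 and 4 counts against 1, 2 and 1. The last 2 arms lie near the floor of 3 counts and did not pass the filter, so the reported fit does not test them. Under looser filters miR-148b-5p had a log2 fold change of 1.13 with an SE of 0.45 (10 CPM in 3 libraries, edgeR adjusted p = 0.121) or 0.57 (no filter, edgeR adjusted p = 0.334), and miR-152-5p had -0.21 with an SE of 1.18 (no filter, edgeR adjusted p = 0.969). Neither passed. The 0 of miR-152-5p in untreated-titled replicate 1 allows a share of up to 0.00150% of that library, the share that 3 counts would have. Ranked by mean level over the 6 libraries, the tested members stood 1st (miR-148a-3p), 37th (miR-148b-3p), 65th (miR-152-3p) and 117th (miR-148a-5p) of 195.

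**Figure D2:**
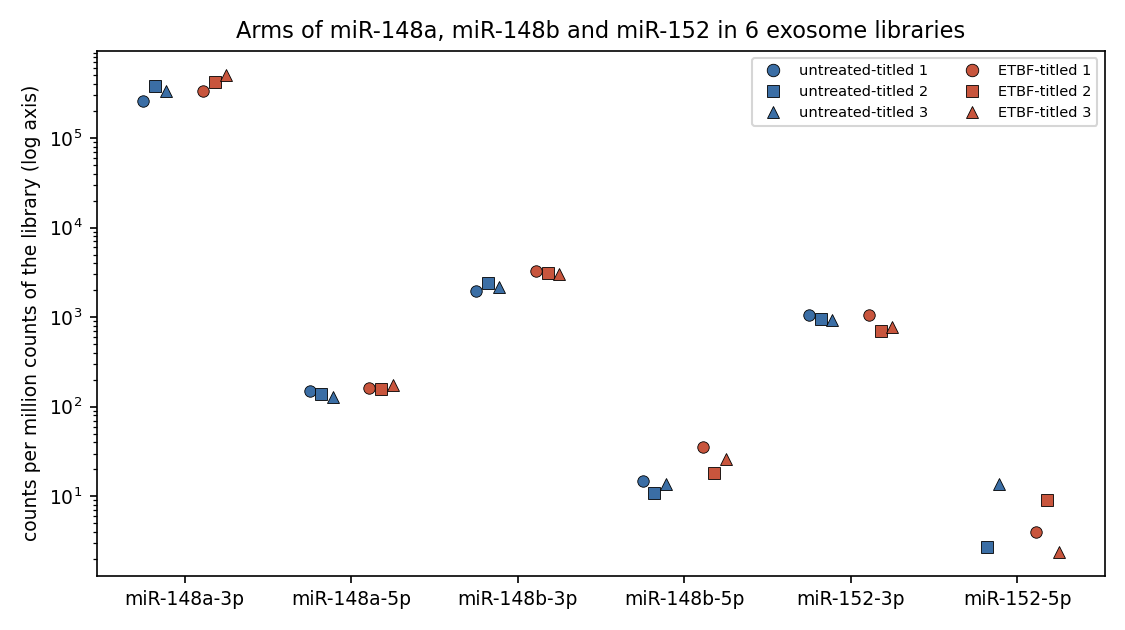
CPM (counts per 1000000) relative to the unscaled library total, on a log axis, of the 6 arms of the family, 1 point per library, blue for untreated-titled and red for ETBF-titled, with the marker shape giving the replicate. The 0 of miR-152-5p in untreated-titled replicate 1 is not drawn. miR-148a-3p stands apart from the other 5 arms in each library. On this unscaled total the groups of miR-148b-3p do not overlap, and neither do those of miR-148a-5p and miR-148b-5p, which have few counts. How many of all entries separate on this total was not counted, so these separations have no background to be read against.

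As a pool, the 3 strands with the seed CAGUGCA took between 26.6% and 51.5% of a library. miR-148a-3p supplied 98.7% to 99.3% of that pool, so by share of counts the dominant strand was miR-148a-3p and not its paralogues. How far counts follow the amounts of different strands was not tested. Its share of the pool was 99.0% ± 0.145 in the untreated-titled libraries and 99.0% ± 0.292 in the ETBF-titled libraries (SD, n = 3 each, exact permutation test, two-sided, p = 1). miR-148b-3p supplied 0.668% ± 0.0645 and 0.767% ± 0.202 of the pool, and miR-152-3p 0.306% ± 0.0808 and 0.211% ± 0.0924 (SD, n = 3). With 3 libraries against 3, the smallest p this exact test can give is 0.1. It was applied to 8 measures of share and ratio within the family, and adjusted p-values below are over these 8. The 8 hold both the ratio of miR-148b-3p to miR-152-3p and the share of miR-148b-3p in their sum. These order the libraries identically, so that comparison is counted more than once, which lowers its adjusted p.

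Ratios of paralogues within a library do not depend on how libraries are scaled to each other. miR-148a-3p held 133, 161 and 153 counts for each count of miR-148b-3p in untreated-titled replicates 1 to 3, and 100.0, 137 and 168 in ETBF-titled replicates 1 to 3. The ratio was lowest in ETBF-titled replicate 1 and highest in ETBF-titled replicate 3, so the ETBF-titled libraries spanned the untreated-titled ones. On the log2 scale the mean ratio was 7.22 ± 0.14 and 7.04 ± 0.38 (SD, n = 3), a difference of -0.17 that was smaller than the spread of the ETBF-titled libraries (exact permutation p = 0.7, adjusted p = 0.8). That difference was 0.030 without ETBF-titled replicate 1 and -0.35 without ETBF-titled replicate 3.

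miR-148a-3p against miR-152-3p gave ratios of 248, 399 and 364 in the untreated-titled libraries and 311, 602 and 657 in the ETBF-titled libraries. ETBF-titled replicate 1 again lay within the untreated-titled range. The log2 means were 8.37 ± 0.36 and 8.96 ± 0.59, which differ by 0.59 (SD, n = 3, exact permutation p = 0.3, adjusted p = 0.48). The remaining pair separated the groups: miR-148b-3p held 1.86, 2.48 and 2.38 counts for each count of miR-152-3p in the untreated-titled libraries and 3.11, 4.40 and 3.90 in the ETBF-titled libraries. The lowest ETBF-titled ratio stood above the highest untreated-titled ratio, although the exact 95% counting intervals of those libraries, 2.70 to 3.58 and 2.19 to 2.82, overlapped. The log2 ratio was 1.15 ± 0.23 and 1.91 ± 0.25, a difference of 0.76 (SD, n = 3, exact permutation p = 0.1, the smallest possible, adjusted p = 0.4). Leaving out single libraries gave 0.63 to 0.90.

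**Figure D3:**
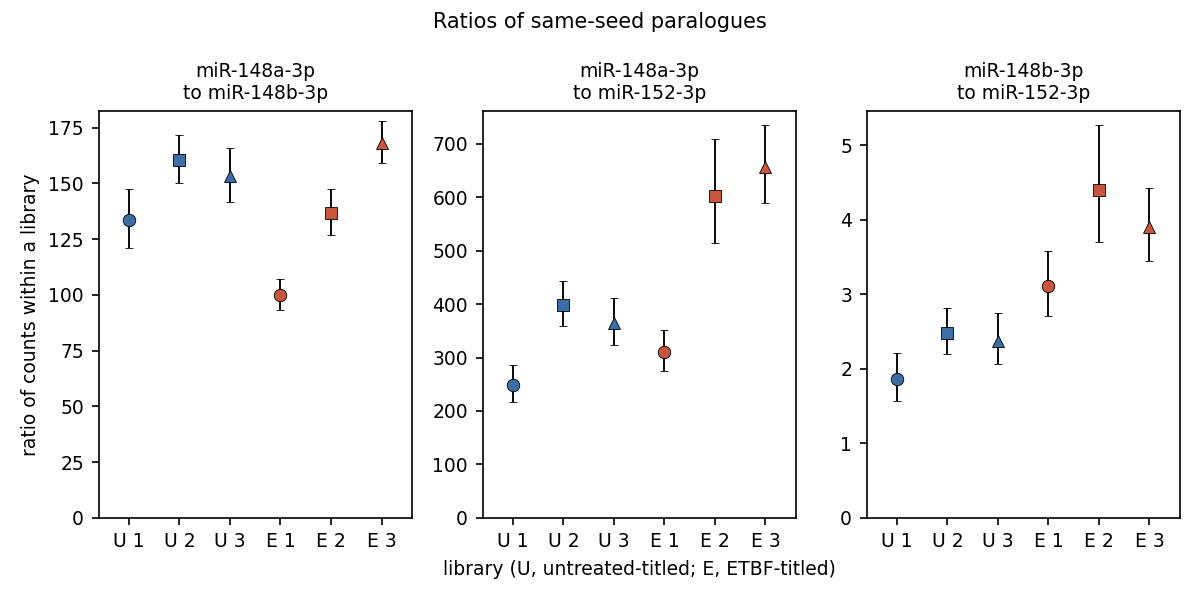
Ratios of counts between the 3 strands that share a seed, 1 point per library, with exact 95% binomial intervals for counting error. U marks untreated-titled and E ETBF-titled libraries. Only in the panel of miR-148b-3p to miR-152-3p do the 3 ETBF-titled points all lie above the 3 untreated-titled points.

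By counts, the 3p arm far exceeded the 5p arm in all 3 hairpins. Whether the amounts of the strands differ as much was not tested. For miR-152, 157 to 353 counts of the 3p arm per library stood against 0 to 4 of the 5p arm, too few for a ratio. For each count of miR-148a-5p there were 1752, 2761 and 2588 counts of miR-148a-3p in the untreated-titled libraries and 2024, 2699 and 2965 in the ETBF-titled libraries. The log2 arm ratio was 11.18 ± 0.35 and 11.31 ± 0.29 (SD, n = 3, exact permutation p = 0.6, adjusted p = 0.8), so the groups overlapped. It differed by 0.12 between the groups, or by -0.079 without untreated-titled replicate 1. In miR-148b the 3p arm exceeded the 5p arm by 131, 219 and 161 to 1 against 92.2, 173 and 115 to 1 (log2 difference -0.44, exact permutation p = 0.3, adjusted p = 0.48). With 3 to 11 counts of miR-148b-5p those ratios are loose: the exact 95% interval of the first was 44.6 to 639.6. The arm ratio of miR-148a was above that of miR-148b in each library, a comparison for which no test was made.

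Levels were next compared between the titled groups with the fit over all 195 tested entries. Levels here are CPM, counts per 1000000, relative to library sizes scaled by TMM (trimmed mean of M-values), a method that sets the scale by the bulk of entries rather than by the few most abundant, so the CPM of a library can sum to more or less than 1000000. Of the 195 entries, 28 had an adjusted p under 0.05 in edgeR's quasi-likelihood test, 14.4% of those tested, with 21 higher and 7 lower in the ETBF-titled libraries. With upper-quartile scaling there were 42, of which 36 were higher and 6 lower, and without ETBF-titled replicate 1 there were 59, of which 38 were higher and 21 lower. Among the 4 tested family members 1 passed, miR-148b-3p, which is too few to set against that background. In TMM-scaled CPM it was also the only tested member whose groups did not overlap, and groups did not overlap for 39% of all tested entries.

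miR-148b-3p rose in the ETBF-titled libraries. Its level was 1917, 2422 and 2056 CPM in untreated-titled replicates 1 to 3 and 2795, 3117 and 3927 CPM in ETBF-titled replicates 1 to 3. Means were 2132 ± 261 and 3280 ± 583 CPM (SD, n = 3), 1.54-fold higher, with a log2 fold change of 0.62 and a standard error (SE) of 0.14 (edgeR, adjusted p = 0.0208). The call was lost with library size alone (log2 fold change 0.53, edgeR adjusted p = 0.0945). It was also lost without untreated-titled replicate 3 (0.54, edgeR adjusted p = 0.0542) and without ETBF-titled replicate 3 (0.46, edgeR adjusted p = 0.0664). It held in 14 of 17 settings in all, with adjusted p from 1.41e-05 to 0.0945.

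The level of miR-148a-3p was 255731, 388902 and 314925 CPM in untreated-titled replicates 1 to 3 and 279526, 426147 and 661088 CPM in ETBF-titled replicates 1 to 3. ETBF-titled replicate 1 was lower than 2 of the 3 untreated-titled libraries, and ETBF-titled replicate 3 was higher than all others. The log2 fold change was 0.51 with an SE of 0.31 (edgeR, adjusted p = 0.290), and did not pass. Its coefficient of variation was 20.9% in the untreated-titled and 42.2% in the ETBF-titled libraries. The biological coefficient of variation that edgeR fitted to it, 25.1%, was the 8th highest of the 195 entries, against a median of 10.5%, even though no entry had more counts. Single libraries decided its value: the log2 fold change was 0.73 without ETBF-titled replicate 1 (SE 0.17, edgeR adjusted p = 0.00153) and 0.14 without ETBF-titled replicate 3 (SE 0.26, edgeR adjusted p = 0.787). With no low-count filter it passed at 0.50 (edgeR adjusted p = 0.0185), and it passed in 2 of 16 settings.

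miR-152-3p, which acts on the same seed sites, had 1031, 975 and 865 CPM in the untreated-titled and 899, 708 and 1007 CPM in the ETBF-titled libraries. The groups overlapped, and the log2 fold change of -0.12 was within its SE of 0.14 (edgeR, adjusted p = 0.542). Its sign turned to 0.033 without ETBF-titled replicate 2, and it passed in 0 of 17 settings. miR-148a-5p had 146, 141 and 122 CPM against 138, 158 and 223 CPM, with a log2 fold change of 0.37 (SE 0.22, edgeR adjusted p = 0.276), or 0.11 without ETBF-titled replicate 3. Both arms of miR-148a and miR-148b-3p thus had positive values and miR-152-3p a negative one. The median of the 4 tested members was 0.44, and that of all 195 tested entries -0.03.

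**Figure D4:**
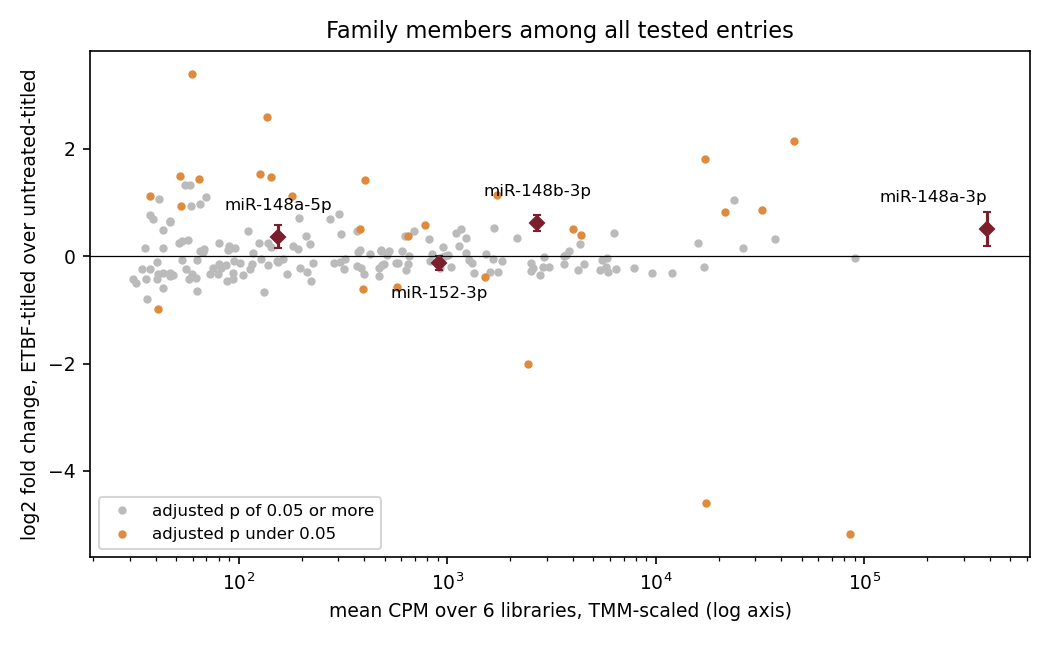
Log2 fold change of ETBF-titled over untreated-titled libraries against mean CPM (log axis) for the 195 tested entries, orange where the adjusted p is under 0.05. Diamonds with SE bars mark the 4 tested family members: miR-148a-3p lies farthest to the right of all entries, and miR-148b-3p is the member that passed.

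**Figure D5:**
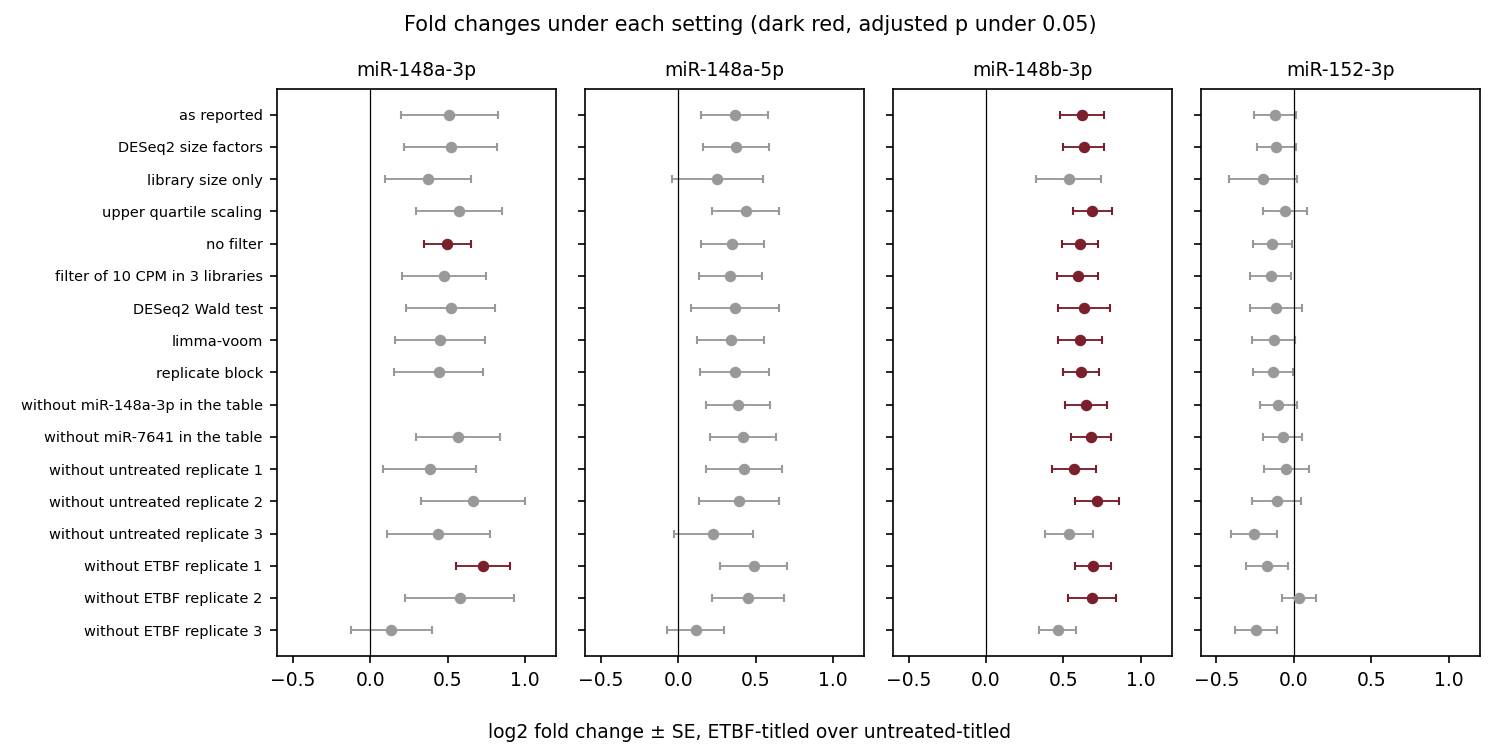
Log2 fold change with its SE for the 4 tested members under the reported fit (top line) and each alternative, dark red where the adjusted p is under 0.05. miR-148a-3p is not tested where it is taken out of the table. miR-148b-3p passed in 14 of 17 settings and miR-148a-3p in 2 of 16.

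Because miR-148a-3p takes so much of a library, it limits what is left for every other entry. Without it, 147641, 228118 and 195108 counts remained in the untreated-titled libraries and 167423, 127518 and 203877 in the ETBF-titled libraries. ETBF-titled replicate 3, the library with the most counts in all, thus held fewer other counts than untreated-titled replicate 2. The share of another entry rises when miR-148a-3p is removed from the total, by 1.36-fold in untreated-titled replicate 1 and by 2.05-fold in ETBF-titled replicate 3, the extremes of the 6 libraries. Those factors differ by 1.51-fold, or 0.59 on the log2 scale, for each entry outside the family. TMM gave ETBF-titled replicate 3 the lowest scaling factor, 0.776, and ETBF-titled replicate 1 the highest, 1.19.

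The next most abundant entry was miR-7641 in each untreated-titled library and miR-21-5p, an oncogenic miRNA, in each ETBF-titled library. miR-148a-3p exceeded it 1.08-, 3.11- and 2.28-fold in the untreated-titled libraries and 3.02-, 4.87- and 7.67-fold in the ETBF-titled libraries. The share of miR-7641 was 24.4%, 12.3% and 14.7% against 0.535%, 0.425% and 0.389%, so its groups did not overlap and the ETBF-titled libraries had the lower values. With miR-7641 left out of the totals, miR-148a-3p made up 34.7%, 43.5% and 39.3% of the untreated-titled libraries and 33.3%, 42.7% and 51.3% of the ETBF-titled libraries. The difference between group means was then 3.29 percentage points (exact permutation p = 0.7), against 9.64 with all counts (exact permutation p = 0.3, n = 3 per group). Without ETBF-titled replicate 3 it was 5.20 percentage points with all counts.

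Evenness was measured by the effective number of entries, the number of equally abundant entries that would give the same Shannon entropy. It was 17.4, 16.4 and 18.1 in the untreated-titled libraries and 20.0, 15.0 and 11.1 in the ETBF-titled libraries, and was lowest where miR-148a-3p was highest. With miR-148a-3p removed it was 22.1, 31.4 and 29.9 against 34.1, 33.9 and 33.7, so the ETBF-titled libraries then lay within a narrow range. The 10 most abundant of the other entries held 66.7% ± 3.09 and 66.6% ± 1.17 of what remained (SD, n = 3).

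The choice of total changed the sign of many small differences. For the 191 tested entries outside the family, the median log2 difference between ETBF-titled and untreated-titled libraries was -0.11 when each library was divided by its total, with 78 entries positive and 113 negative. It was 0.12 when miR-148a-3p was left out of the totals, with 123 positive and 68 negative, so 45 entries changed sign. miR-7641 moved the median too: with it alone left out the value was -0.38, with 48 positive and 143 negative. With both miR-148a-3p and miR-7641 left out it was -0.29, with 53 positive. ETBF-titled replicate 3 alone also turned the first value, to 0.067 when that library was left out. Calls were recounted by edgeR with TMM: with miR-148a-3p taken out of the table before filtering and scaling, 30 entries were called, 24 higher and 6 lower, of which 27 were among the 28. Taking out miR-7641 instead gave 40 calls, 34 higher and 6 lower, of which 27 were among the 28. The log2 fold change of miR-148b-3p was 0.65 with miR-148a-3p taken out (edgeR adjusted p = 0.0122) and 0.68 with miR-7641 taken out (edgeR adjusted p = 0.00645).

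The effect can be followed in the most abundant entries outside the family. miR-21-5p was 9.29% ± 0.344 of untreated-titled and 8.79% ± 2.15 of ETBF-titled libraries, and 13.9% ± 1.26 and 15.1% ± 1.38 of the counts left without miR-148a-3p (SD, n = 3). The sign of its difference turned, but neither difference was beyond the spread (exact permutation p = 0.7 and 0.4). let-7f-5p, a growth-restraining miRNA, went from 3.37% ± 0.0563 and 4.08% ± 0.923 of all counts, which overlapped between groups, to 5.03% ± 0.397 and 7.02% ± 0.530 of the rest (exact permutation p = 0.4 and 0.1, n = 3). let-7i-5p and miR-7-5p were higher in the ETBF-titled libraries and miR-7641 lower on either total (exact permutation p = 0.1 for each, the smallest possible).

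The entries most like miR-148a-3p across the 6 libraries were found by Pearson's correlation of log2 CPM with 194 other tested entries, given as a description with no p, since the libraries, their depth and their scaling are shared. The highest were miR-223-3p, a myeloid miRNA (r = 0.95), miR-584-5p (0.94), miR-151a-3p (0.93), miR-23a-3p (0.92) and miR-101-3p, which represses EZH2 (0.91). Spearman's rho was 0.89, 0.94, 0.94, 0.94 and 0.77. The first of these entries were scarce: miR-223-3p averaged 51.4 CPM, with 90 counts over the 6 libraries, and miR-584-5p 57.3 CPM. Their r thus carries much counting error. Without ETBF-titled replicate 3 and untreated-titled replicate 1, the 2 libraries farthest from the median of miR-148a-3p, r over the remaining 4 was 0.92, 0.80, 0.77, 0.78 and 0.44. The lowest were miR-34a-5p, a p53 target (-0.84), miR-484 (-0.86) and miR-141-3p of the miR-200 family (-0.89), at -0.72, -0.28 and -0.54 over 4 libraries. Within the family, miR-148b-3p ranked 14th of 194 (r = 0.84), miR-148a-5p 15th (0.84) and miR-152-3p 93rd (-0.03), with 0.35, 0.68 and -0.45 over 4 libraries.

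Related miRNAs were far less abundant than miR-148a-3p. The family of miR-130, miR-301 and miR-454 has the core GUGCA of the seed shifted by a base; GUGCA lies within bases 2 to 8 of 22 of 2370 mature miRNAs in the RefSeq table (0.928%), read on the mature strand alone. Its strand with enough counts to test is shown with that core in capitals.
miR-454-3p: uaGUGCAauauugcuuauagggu
Of the 5 members listed, 1 was tested and none passed: miR-454-3p had 30.1 ± 11.2 and 47.9 ± 6.43 CPM (SD, n = 3, log2 fold change 0.70, SE 0.33, edgeR adjusted p = 0.163), and miR-301a-3p was at 0 in all 6 libraries. The whole list held 0.00542% to 0.00647% of the untreated-titled and 0.00863% to 0.0124% of the ETBF-titled libraries. These shares rest on few reads: over the 6 libraries miR-454-3p had 67 counts, miR-130a-3p 55, miR-130b-3p 15 and miR-301b 2. With 1 member tested, the list cannot be set against the 14.4% called over all tested entries. Of 7 other miRNAs reported to repress DNA methyltransferases, 5 were tested and none passed, with a median of -0.07. With 14.4% of all tested entries called, 0 of 5 says nothing particular about this list. Among them miR-29a-3p, a repressor of DNMT3A and DNMT3B, had 4589 ± 1291 and 3870 ± 464 CPM (log2 fold change -0.25, SE 0.20, edgeR adjusted p = 0.420). miR-29b-3p had 266 ± 24.4 and 350.0 ± 14.1 CPM (0.41, SE 0.13, edgeR adjusted p = 0.0601). The log2 fold change of miR-185-5p was 0.37 (SE 0.17), of miR-342-3p -0.07 (SE 0.30) and of miR-126-3p, an endothelial miRNA, -0.09 (SE 0.10).

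Listed markers of gut epithelium, of muscle and liver, and of blood cells were set beside these values, although the exosomes came from a single cell line. Of 9 gut epithelial miRNAs 8 were tested, 1 fell (miR-375, log2 fold change -0.61, SE 0.17, edgeR adjusted p = 0.0432) and 7 did not pass, a count that 14.4% called over all tested entries leaves without meaning for the list. Together they held 3.31% to 3.69% of untreated-titled and 2.25% to 3.85% of ETBF-titled libraries. Muscle and liver miRNAs, which a colorectal line is not known for, held 2.48% to 2.78% and 1.82% to 2.69%; 5 of 7 were tested, none passed, and miR-208a-3p and miR-208b-3p were at 0. Blood-cell miRNAs held 0.0712% to 0.0724% and 0.0527% to 0.0827%, with 5 of 8 tested and none passing; these counts too are too small to read against 14.4%. miR-148a is also expressed in liver. The part of other cell types or of medium components in the level of miR-148a-3p was not tested.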

How the data were processed

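Small RNA libraries were made from 100 ng of total exosomal RNA with an Illumina TruSeq RNA kit, per the labels' protocols. The 6 deposited files hold the authors' whole-number counts per mature miRNA entry, not normalised. Trimmomatic, FastQC and featureCounts and the build GRCh37.p5 are named in the submitters' processing notes; neither the versions, the aligner nor the handling of multi-mapped reads is given in the sources used here.

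Entries were kept by edgeR's filterByExpr (minimum count 10), leaving 195 of 2575. Counts were scaled by TMM and compared by the two-sided quasi-likelihood test of edgeR. P-values were adjusted by Benjamini-Hochberg over the 195 entries, with a threshold of 0.05. The SE was derived by dividing the size of the log2 fold change by the square root of the F statistic. Shares and ratios were tested by exact permutation of the 6 libraries. Medians by library total used a pseudocount of 0.5. Log2 CPM for correlations used a prior count of 2. Totals ran from 200207 to 417321 counts, and 3 counts correspond to 8.29 to 14.6 CPM.

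The members and lists were chosen with earlier results of these data known. Besides all arms of the family, the text names the 5 most abundant other entries, the 5 most and 3 least correlated entries, and the tested members of 2 lists; miR-375 and the markers at 0 were named after their values were seen. Alternatives were other scalings and filters, DESeq2, limma-voom, a replicate block, miR-148a-3p or miR-7641 left out, and each library left out. Versions were edgeR 4.0.16, DESeq2 1.42.0 and limma 3.58.1 under R 4.3.3.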

Additional observations from a re-analysis of the deposited data

How the results depend on the processing

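The 28 calls over all entries became 51 with no filter and 17 to 59 when single libraries were left out, with 59 (38 higher and 21 lower) when ETBF-titled replicate 1 was the library left out and 17 when it was untreated-titled or ETBF-titled replicate 3. miR-148b-3p had log2 fold changes of 0.46 to 0.72 with single libraries left out and was not called with library size only (0.53). miR-148a-3p had 0.14 to 0.73 with single libraries left out and was called with no filter (0.50). miR-148a-5p had 0.11 to 0.49 and miR-152-3p -0.26 to 0.033 over the same settings, and neither was called in any. The log2 ratio of miR-148a-3p to miR-148b-3p differed by -0.35 to 0.030, that of miR-148a-3p to miR-148a-5p by -0.079 to 0.28, and the share of miR-148a-3p by 5.20 to 14.2 percentage points. The median log2 difference of other entries by library total was -0.24 to 0.067 over left-out libraries, 0.12 without miR-148a-3p in the totals and -0.38 without miR-7641. These changed totals, and the settings of the ratio of miR-148b-3p to miR-152-3p, were chosen after seeing the data. Apart from the changed totals and the left-out libraries, the cause of these moves was not tested.

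With the replicate block the edgeR log2 fold changes were 0.44 for miR-148a-3p, 0.62 for miR-148b-3p, -0.13 for miR-152-3p and 0.37 for miR-148a-5p, with adjusted p of 0.302, 0.00678, 0.491 and 0.281, and 38 entries were called. Same-numbered libraries correlated in their deviations from the group means at 0.18, 0.10 and 0.05, and each library correlated best with its own number except ETBF-titled replicate 3, which is a hint from the data and not a design. The lowest of these is under the 0.1 asked of every pair, so the numbers were not taken to pair the libraries. A paired sign-flip test on 3 differences cannot go below an exact p of 0.25, which is what the share of miR-148a-3p and the ratio of miR-148b-3p to miR-152-3p gave, against 0.5 for the ratio of miR-148a-3p to miR-148b-3p. Depth limits the 5p arms of miR-148b and miR-152, with 35 and 9 counts over the 6 libraries, which were tested only under looser filters and passed in none.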
